A study of Mus musculus with 9 samples.

Results

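Of the 54532 genes in the table, 6 were examined in the cerebral cortex of 3 inbred mouse strains. They were Wfs1, an endoplasmic reticulum gene, and Prox1, Fibcd1, Dsp, C1ql2 and Spink8, which are used as markers of hippocampal neurons. The genes were chosen by symbol with measured values of these same 9 libraries already known, so their own levels and differences are described with their errors and are given no p-value. The question was whether a difference in Wfs1 between strains was carried by Wfs1 alone or was shared by the other hippocampal markers. RNA had been sequenced from the brain cortex of 3 male C57BL6/J (B6), 3 male C3H/HeJ (C3H) and 3 male WSB/EiJ (WSB) mice, adult animals of 8 to 12 weeks with no stated treatment or allele. B6 and C3H are classical laboratory strains, and WSB is wild-derived. The study had sequenced these strains, which have unlike infarct size after stroke, to rank further candidate genes in a chromosome 8 interval linked to infarct volume. Nothing in the labels says whether mice of a strain shared a litter or a collection day, so the spread between mice is the only error available.

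Wfs1 encodes wolframin, a glycoprotein of the endoplasmic reticulum membrane whose loss causes Wolfram syndrome, with diabetes and degeneration of nerve cells. In the mouse forebrain it is known from pyramidal neurons of hippocampal field CA1 and from upper-layer cortical neurons, and cells that lack it show a stronger unfolded protein response, the program that answers misfolded protein in that compartment. Fibcd1, a membrane receptor that binds chitin, and Spink8, a member of the Kazal family of serine protease inhibitors, are markers of CA1 pyramidal neurons. Prox1, a homeobox transcription factor that sets granule cell identity, Dsp, which encodes the desmosome protein desmoplakin, and C1ql2, a secreted C1q-like synaptic protein of mossy fibres, are markers of dentate gyrus granule cells. Prox1 is also found in cortical interneurons from the caudal ganglionic eminence and in lymphatic endothelium.

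Each library held between 16317439 and 21562429 reads assigned to genes. Markers of the labelled tissue were present: the summed level of 6 genes of neocortical excitatory neurons lay between 343 and 504 FPKM (read fragments scaled to gene length and library size) in the 9 libraries, and no gene of that list was at 0. Slc17a7 held most of this sum, with a mean of 292 FPKM. Whether the list can tell neocortex from hippocampus was not tested. Markers of neighbouring tissue were present as well, since 9 genes of striatal medium spiny neurons summed to 142 to 798 FPKM and 6 genes of choroid plexus to 64.7 to 764 FPKM.

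Wfs1 (ENSMUSG00000039474) lies on the minus strand of chromosome 5 at chr5:36966104-36989205 (GRCm38), where 8 exons make up its longest transcript and no other annotated gene overlaps it. Its promoter, from 250 bases before to 50 bases after the RefSeq start, is printed here because the strain difference below is one of transcript level, and the promoters of Fibcd1 and C1ql2 are set beside it as those of a CA1 and a dentate gyrus marker. All 3 are RefSeq sequences of build GRCm38.p6, and capitals mark the matches on either strand to a CCAAT box (CCAAT), a GC box (GGGCGG), the sequence CCACG found in elements of the unfolded protein response, a NeuroD-type E-box (CAGATG) or a TATA box (TATAAA). The Wfs1 window is chr5:36988933-36989232 (minus strand), that of Fibcd1 is chr2:31845956-31846255 (minus strand) and that of C1ql2 is chr1:120340332-120340631 (plus strand). The RefSeq start of Wfs1 lies inside the annotated gene, which reaches chr5:36989205, so most of its window falls within the gene span. For Fibcd1 and C1ql2 the RefSeq start is the annotated start of the gene, so the windows are not placed alike.
Wfs1: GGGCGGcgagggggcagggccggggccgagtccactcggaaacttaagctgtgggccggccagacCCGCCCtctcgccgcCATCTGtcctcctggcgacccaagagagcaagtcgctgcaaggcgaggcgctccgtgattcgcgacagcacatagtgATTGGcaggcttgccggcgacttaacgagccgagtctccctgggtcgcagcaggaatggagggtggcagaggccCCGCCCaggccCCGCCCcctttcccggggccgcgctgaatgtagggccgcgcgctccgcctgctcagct
Fibcd1: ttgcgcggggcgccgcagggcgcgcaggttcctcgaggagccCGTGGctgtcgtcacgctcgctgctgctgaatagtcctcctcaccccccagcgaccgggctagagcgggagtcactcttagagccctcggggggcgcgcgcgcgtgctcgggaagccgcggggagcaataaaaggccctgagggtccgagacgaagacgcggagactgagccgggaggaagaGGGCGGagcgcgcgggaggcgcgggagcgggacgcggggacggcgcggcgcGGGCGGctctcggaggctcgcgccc
C1ql2: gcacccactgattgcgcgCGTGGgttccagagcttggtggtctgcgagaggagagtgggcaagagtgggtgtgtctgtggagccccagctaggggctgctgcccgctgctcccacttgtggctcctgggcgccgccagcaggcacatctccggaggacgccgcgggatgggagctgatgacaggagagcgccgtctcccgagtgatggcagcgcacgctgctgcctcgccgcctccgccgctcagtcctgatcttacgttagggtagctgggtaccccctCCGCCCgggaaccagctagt

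The Wfs1 window held 4 GC boxes, 1 CCAAT box and 1 NeuroD-type E-box, and no TATA box. Fibcd1 held 2 GC boxes and C1ql2 held 1, and each of them held 1 CCACG, which the Wfs1 window did not. The full unfolded protein response element TGACGTGG and the endoplasmic reticulum stress element (CCAAT, 9 bases, CCACG) matched in none of the 6 promoters found for 5 of the 6 genes. Among all 32841 RefSeq mouse promoters of this length, a GC box was found in 35.7%, a CCAAT box in 37.4%, CAGATG in 17.2%, CCACG in 32.8%, TATAAA in 13.6%, TGACGTGG in 0.676% and the spaced element in 0.119%. These sequences are those of the reference, which is a B6 genome, and no WSB or C3H sequence was read here.

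Wfs1 stood at its highest level in WSB and at its lowest in B6. The 3 B6 mice had 30.7, 33.0 and 28.9 FPKM, the 3 C3H mice 38.1, 34.8 and 35.4 FPKM, and the 3 WSB mice 56.4, 58.1 and 53.5 FPKM. No range of one strain touched that of another, and the means were 30.9 ± 2.04 in B6, 36.1 ± 1.75 in C3H and 56.0 ± 2.34 FPKM in WSB (SD, n = 3 each). The ratio of means was 1.81 for WSB over B6, 1.55 for WSB over C3H and 1.17 for C3H over B6. Between 2085 and 3813 reads stood behind each value, so counting error was small beside the spread between mice.

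On the log2(FPKM + 0.1) scale Wfs1 was higher in WSB than in B6 by 0.86 (SE 0.07) and higher in WSB than in C3H by 0.63 (SE 0.07). Leaving out each mouse in turn kept these differences between 0.81 and 0.91 and between 0.61 and 0.67. C3H exceeded B6 by 0.23 (SE 0.08), with 0.18 to 0.27 over the same fits. The small C3H difference depended on a correction for the base composition of transcripts. Differences between C3H and B6 followed GC content across genes (Spearman 0.49 over 12940 genes, which are not independent replicates), the longest Wfs1 transcript is 57.8% GC, and after a GC trend was removed from each library the difference was 0.051. The same step left WSB against B6 at 0.79 and WSB against C3H at 0.73. The trend was not confined to C3H against B6, with a Spearman value of -0.40 over 12998 genes in WSB against C3H. In WSB against B6 it was 0.11 over 13036 genes.

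**Figure D1:**
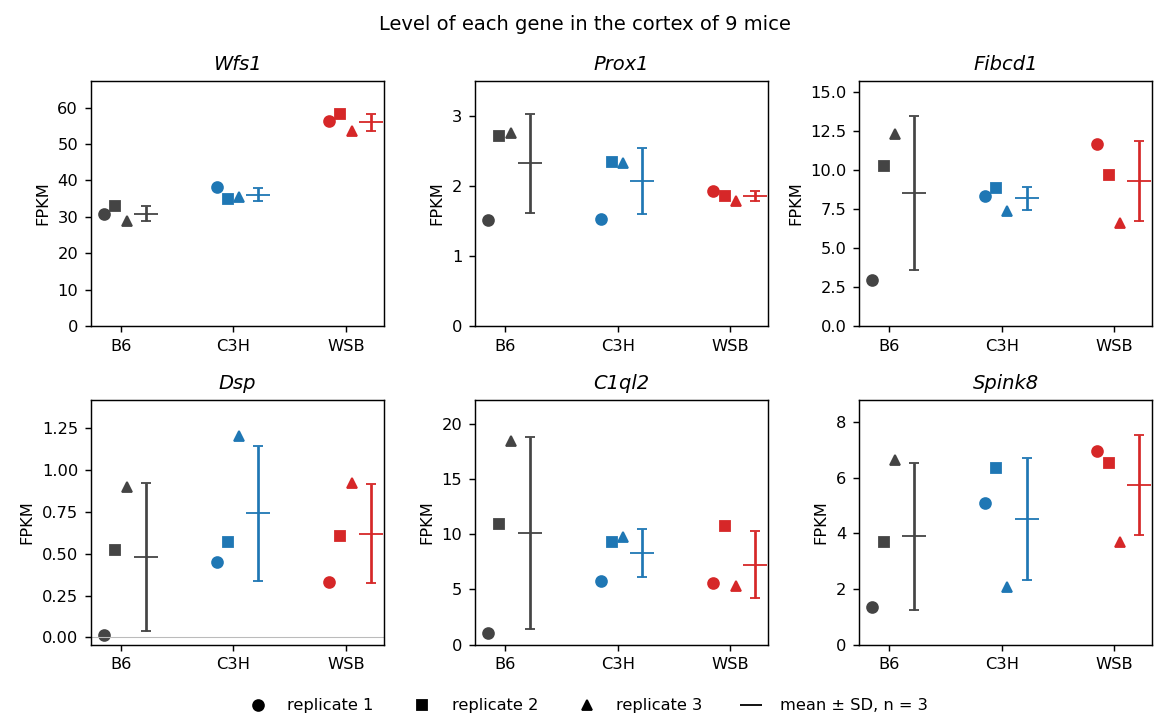
Level in FPKM (vertical axes, from 0) of each of the 6 genes in 3 B6, 3 C3H and 3 WSB mice (horizontal axes), with points for mice, shaped by replicate number, and a bar with whiskers for the mean ± SD of each strain. Wfs1 shows 3 separate groups, from 28.9 to 33.0, 34.8 to 38.1 and 53.5 to 58.1 FPKM, while the other 5 genes overlap between strains and B6 replicate 1 is the lowest point of each.

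Across all genes, 5.90% of the 20746 tested passed in WSB against B6 (limma, Benjamini-Hochberg adjusted p under 0.05), 4.64% of 20602 in C3H against B6 and 5.74% of 20607 in WSB against C3H. Of the 6 genes, 1 passed in WSB against B6, 0 in C3H against B6 and 1 in WSB against C3H, and the one that passed was Wfs1 both times. Ranges that did not overlap between strains were common in the table, at 26.0% of genes in WSB against B6, 28.9% in C3H against B6 and 28.6% in WSB against C3H. Wfs1 was the 1 gene of the 6 without overlap in each comparison. Since the genes were selected on values of these mice, nothing is read from either count. For the lists below, counts with voom weights and at an unadjusted p under 0.05 are given beside the main fit. With voom weights 1542, 1426 and 1796 of all genes passed, in the same order of comparisons. The share of all genes at an unadjusted p under 0.05 is not given, so nothing is read from list counts at that threshold.

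Fibcd1, the CA1 marker with the highest level of the other 5 genes in WSB, had 2.93, 10.3 and 12.3 FPKM in B6, 8.32, 8.85 and 7.39 FPKM in C3H and 11.7, 9.66 and 6.59 FPKM in WSB. B6 held both the lowest and the highest mouse, and the ranges of C3H and WSB lay inside that of B6. Its log2 difference was 0.33 (SE 0.51) in WSB against B6, 0.18 (SE 0.48) in C3H against B6 and 0.15 (SE 0.20) in WSB against C3H.

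Spink8, the second CA1 marker, had 1.36, 3.68 and 6.63 FPKM in B6, 5.10, 6.35 and 2.07 FPKM in C3H and 6.96, 6.54 and 3.67 FPKM in WSB. Every strain held a low mouse, at 1.36, 2.07 and 3.67 FPKM, and a high one, at 6.63, 6.35 and 6.96 FPKM. The log2 difference of 0.75 in WSB against B6 was the nearest in size to that of Wfs1, with an SE of 0.53 against 0.07 for Wfs1. C3H exceeded B6 by 0.32 (SE 0.59), and WSB exceeded C3H by 0.43 (SE 0.42).

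C1ql2, a dentate gyrus marker, varied widely between the B6 mice. B6 had 1.01, 10.9 and 18.4 FPKM, C3H 5.75, 9.26 and 9.74 FPKM and WSB 5.59, 10.8 and 5.34 FPKM. The highest B6 mouse stood 18.3 times above the lowest, on 36 reads in the lowest. The log2 difference was 0.19 (SE 0.96) in WSB against B6, 0.42 (SE 0.93) in C3H against B6 and -0.23 (SE 0.30) in WSB against C3H, while the ratio of mean FPKM in WSB over B6 was 0.716, so the direction depended on the scale.

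Prox1 had 1.51, 2.71 and 2.76 FPKM in B6, 1.52, 2.35 and 2.33 FPKM in C3H and 1.94, 1.86 and 1.79 FPKM in WSB. The 3 WSB mice lay close together, between the low and the high mice of the other strains. Its log2 difference was -0.26 (SE 0.23) in WSB against B6, -0.14 (SE 0.27) in C3H against B6 and -0.12 (SE 0.19) in WSB against C3H. The opposite strand carries Prox1os, which shares chr1:190170296-190170714 with Prox1 and had 18 to 46 reads per library, and since the counting is not stated to use strand, reads of the shared stretch cannot be assigned to either gene.

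Dsp was the lowest of the 6 genes, with 0.0173, 0.523 and 0.899 FPKM in B6, 0.451, 0.566 and 1.20 FPKM in C3H and 0.330, 0.604 and 0.918 FPKM in WSB. The value in B6 replicate 1 rested on 3 reads. Apart from that mouse the strains overlapped, and the log2 differences were 0.69 (SE 0.77) in WSB against B6, 0.90 (SE 0.77) in C3H against B6 and -0.21 (SE 0.43) in WSB against C3H.

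B6 replicate 1 was the lowest of the 9 mice for all 5 of these genes, though for Prox1 it lay at 1.51 FPKM against 1.52 FPKM in C3H replicate 1. Wfs1 in that mouse lay between the other B6 mice. Without B6 replicate 1, 1 of the 5 genes, in place of 4, was above B6 in WSB, and 0 in place of 4 in C3H. C1ql2 moved from 0.19 to -1.04 (SE 0.36) and Fibcd1 from 0.33 to -0.31 (SE 0.24) in WSB against B6, and Dsp moved from 0.69 to -0.22 (SE 0.43). Spink8 went from 0.75 to 0.15 (SE 0.35), and Prox1 from -0.26 to -0.53 (SE 0.12). Wfs1 stayed at 0.86 (SE 0.08) without that mouse. In C3H against B6 the values without it were -0.81 (SE 0.30) for C1ql2, -0.46 (SE 0.12) for Fibcd1, -0.014 (SE 0.43) for Dsp, -0.27 (SE 0.49) for Spink8, -0.41 (SE 0.21) for Prox1 and 0.22 (SE 0.09) for Wfs1.

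The overlap of strains also depended on that mouse. With only B6 replicates 2 and 3, Prox1 and C1ql2 were higher in B6 than in every WSB mouse, so that 2 of the 5 markers did not overlap, where 35.8% of all genes did not. Against C3H, Prox1, Fibcd1 and C1ql2 were likewise higher in both B6 mice, 3 of the 5, beside 35.4% of all genes. These differences ran opposite to that of Wfs1, and nothing is read from the counts, which rest on 2 B6 mice.

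**Figure D2:**
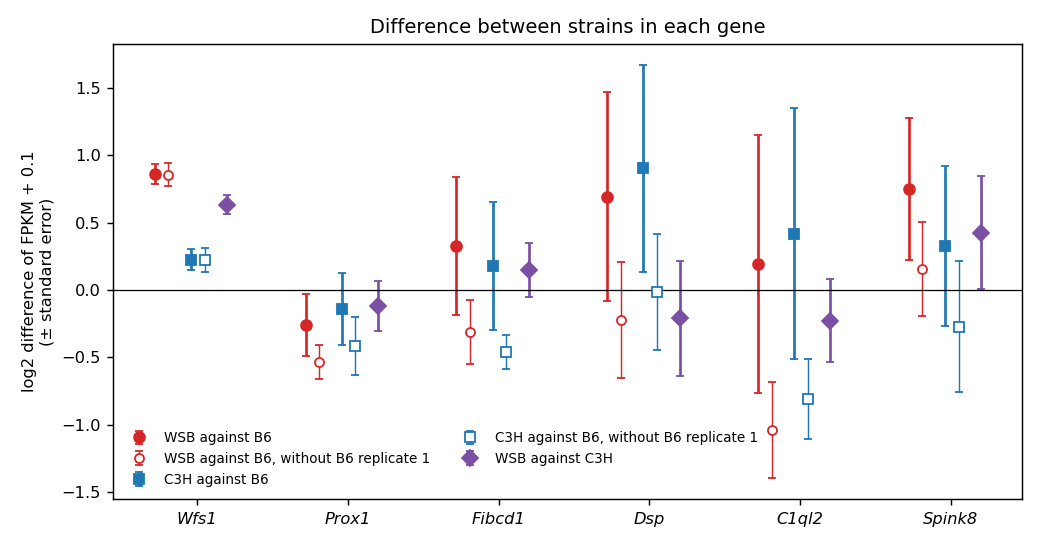
Log2 difference of FPKM + 0.1 between strains (vertical axis) for the 6 genes (horizontal axis), with whiskers for the standard error, filled symbols for all mice and open symbols for fits without B6 replicate 1. Wfs1 in WSB against B6 is 0.86 in both fits, whereas C1ql2 goes from 0.19 to -1.04 and Fibcd1 from 0.33 to -0.31.

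B6 replicate 1 was the lowest mouse for 20.1% of the 20768 genes examined, the largest share of the 9 mice, and also the highest for 17.1%. It held the highest summed level of 9 striatal markers, 798 FPKM, against 434 and 195 FPKM in the other B6 mice, 177 to 473 FPKM in C3H and 142 to 360 FPKM in WSB. By limma 0 of the 9 striatal markers passed in any comparison (0 also at an unadjusted p under 0.05 and with voom weights), and none was at 0. Its summed level of 4 CA1 markers outside the 6 genes, a sum held mostly by Nov and Mpped1, was 97.0 FPKM, the lowest of the 9 mice, against 109 to 150 FPKM in the others. How much of the low values in this mouse goes with the tissue taken was not tested. In these tissue samples, fewer cells of a type and less RNA per cell cannot be told apart.

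In B6 and C3H Wfs1 had the smallest spread of the 6 genes between mice of one strain, and in WSB Prox1 had a smaller one. The SD of Wfs1 was 0.09 on the log2 scale in B6, 0.07 in C3H and 0.06 in WSB, and the B6 value was near the median of 0.11 for the 1028 genes within 0.5 log2 units of its level. C1ql2 in B6 had an SD of 2.16, larger than that of every one of the 2719 genes of like level, whose median was 0.11. For Fibcd1 and Spink8 in B6 the SDs were both 1.11, and 99.7% of genes of like level had a smaller one. B6 replicate 1 enters all of these B6 values of the other genes. Fibcd1 in C3H was typical of its level, with an SD of 0.13 beside a median of 0.13. Prox1 had an SD of 0.47 in B6 and 0.05 in WSB, where only 6.22% of genes of like level varied less.

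Within each mouse, the mean log2 level of the other 5 genes was subtracted from that of Wfs1. The difference was 4.97, 3.13 and 2.44 in B6, 3.69, 3.17 and 3.35 in C3H and 4.08, 3.88 and 4.14 in WSB. The WSB mice lay above all C3H mice, and the B6 mice spanned the values of both other strains. The means were 3.51 ± 1.31 in B6, 3.40 ± 0.26 in C3H and 4.03 ± 0.13 in WSB (SD, n = 3 each). WSB exceeded C3H by 0.63, with 0.51 to 0.77 when each mouse was left out. WSB exceeded B6 by 0.52, which ran from -0.02 without B6 replicate 3 to 1.25 without B6 replicate 1, so this measure gave no stable direction against B6.

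**Figure D3:**
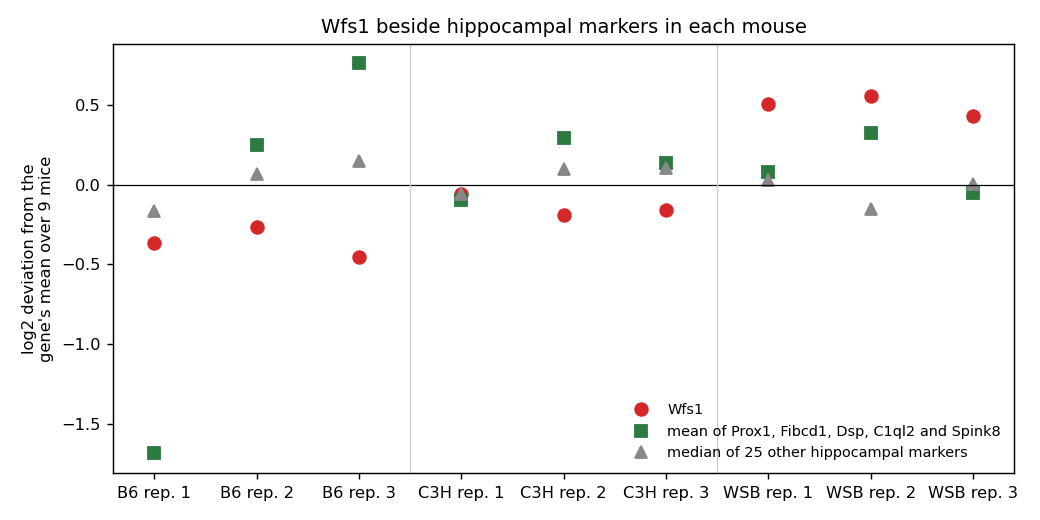
Log2 deviation from the mean over 9 mice (vertical axis) in each mouse (horizontal axis) for Wfs1 (circles), for the mean of the other 5 genes (squares) and for the median of 25 further hippocampal markers (triangles). Wfs1 is at 0.43 to 0.55 in WSB and below 0 elsewhere, while the mean of the other 5 genes runs from -1.69 in B6 replicate 1 to 0.76 in B6 replicate 3. The median of the 25 runs from -0.16 to 0.15 in the same 2 mice, and how far it follows hippocampal content was not tested.

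A longer list of hippocampal markers, none of them among the 6 genes, was then examined. It held genes of dentate gyrus granule cells and of CA1, CA2 and CA3 pyramidal neurons, and 25 of its 26 symbols were found in the table, all of them tested. Some were abundant in these cortex libraries, such as Mpped1, Nov and Necab2 with means of 57.6, 55.9 and 41.2 FPKM. How far the list follows hippocampal content in cortex was not tested. In WSB against B6, 2 passed and both were lower, at a median of -0.06 over the 25 against 0.00 over all genes. In C3H against B6, 0 passed by limma at a median of 0.10 (3 at an unadjusted p under 0.05, and 1, Coch, with voom weights), and in WSB against C3H 2 passed, both lower, at a median of -0.06. These counts are 8.0%, 0% and 8.0% of the list, beside 5.90%, 4.64% and 5.74% of all genes.

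With all mice included, none of the 25 passed with a higher level in WSB, except that Lct, the lactase gene used as a dentate granule cell marker, passed in WSB against C3H with voom weights (1.05, limma, adjusted p = 0.0422). Coch, listed as a CA3 marker and also known for the extracellular protein cochlin of the inner ear, was lower in WSB than in B6 by a log2 difference of -1.18 (limma, Benjamini-Hochberg adjusted p = 0.00749), from 16.1 ± 3.73 to 6.96 ± 0.784 FPKM (SD, n = 3), and it passed without any single mouse. Necab2, a neuronal calcium-binding protein listed for CA2, was lower in WSB by -0.67 against B6 (limma, adjusted p = 0.0472) and by -0.85 against C3H (limma, adjusted p = 0.0374). Iyd, the iodotyrosine deiodinase listed for CA3, was lower in WSB than in C3H by -2.06 (limma, adjusted p = 0.0214), at 0.178 ± 0.124 against 1.01 ± 0.248 FPKM (SD, n = 3). Necab2 against B6 passed only without WSB replicate 2 among the fits that left out a mouse (adjusted p 0.0349 to 0.136), and in 4 of 10 other alternatives. The calls of Necab2 and Iyd against C3H were lost without C3H replicate 1 or 3 or WSB replicate 1 or 3.

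The 4 CA1 markers tested outside the 6 genes had a summed level between 97.0 and 137 FPKM in B6, between 109 and 144 FPKM in C3H and between 120 and 150 FPKM in WSB, with overlap between all strains. This sum mostly reflects Nov and Mpped1, with means of 55.9 and 57.6 FPKM, beside 12.1 for Pou3f1 and 2.77 for Gpr161. How far it follows CA1 content in cortex was not tested. The 9 further dentate gyrus markers summed to 31.5 to 36.1, 32.8 to 37.0 and 31.6 to 40.1 FPKM. By limma 0 genes of either group passed in any comparison. At an unadjusted p under 0.05 there were 0, 0 and 2 CA1 and 2, 1 and 1 dentate markers in WSB against B6, C3H against B6 and WSB against C3H, and voom weights called Dock10 (-0.55 in WSB against B6) and Lct. Of the 25 markers, 7 were lowest in B6 replicate 1 (Tdo2, Lct, Mpped1, Gpr161, Amigo2, Ntf3 and Homer3). That mouse was lowest for 20.1% of all genes, so nothing is read from this count. Coch, at 20.3 FPKM, was the 1 marker highest in B6 replicate 1. Lct had 0.235 FPKM there against 1.08 and 1.92 FPKM in the other B6 mice, and Gpr161, a ciliary receptor listed for CA1, had 1.12 against 2.69 and 3.32 FPKM.

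Wfs1 is also a gene of upper-layer cortical neurons, so layer markers were set beside it. The 8 upper-layer markers had summed levels of 140 to 166 FPKM (B6), 151 to 159 FPKM (C3H) and 143 to 186 FPKM (WSB), with 0 of 8 passing by limma in WSB against B6 and C3H against B6 (1 each at an unadjusted p under 0.05, 0 with voom weights). In WSB against C3H 1 of 8 passed: Cux2, a homeobox gene of upper layers, was lower by -0.40 (limma, Benjamini-Hochberg adjusted p = 0.0458), opposite in direction to Wfs1. Of 10 genes listed as deep-layer markers, 0 passed in both comparisons with B6 (2 each at an unadjusted p under 0.05, and Rorb in WSB against B6 with voom weights). In WSB against C3H 1 passed, Rorb, which was higher by 0.66 (limma, adjusted p = 0.0381). Rorb, though held in that list, is a gene of layer 4, and its difference ran in the direction of Wfs1. The calls of Cux2 and Rorb in WSB against C3H were each lost in 5 of the 6 fits that left out a mouse and held without C3H replicate 2. Of the 6 neocortical excitatory markers 0 passed by limma in any comparison, with 0, 1 and 2 at an unadjusted p under 0.05 and 0 with voom weights.

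Summed oligodendrocyte and microglial markers were lower in WSB without overlap, and endothelial ones only with Ly6c1 included. Of single genes, 26.0% did not overlap in WSB against B6 and 28.6% in WSB against C3H, so nothing is read from this separation. In WSB against C3H, 2 of the 6 microglial genes were higher in WSB. The summed level of 6 oligodendrocyte genes was 427 to 617 FPKM in WSB, below 784 to 982 FPKM in B6 and 734 to 989 FPKM in C3H, with 1 of 6 passing against each (Mobp and Mog, genes of myelin proteins). By limma, 5.90% and 5.74% of all genes passed in these comparisons. At an unadjusted p under 0.05 there were 6 and 4 of the 6, from which nothing is read without the share of all genes. With voom weights 5 and 3 passed, where 1542 and 1796 of all genes did. Microglial genes summed to 133 to 143 FPKM in WSB, 169 to 173 in B6 and 151 to 178 in C3H, and endothelial genes to 23.3 to 30.0, 38.3 to 41.8 and 34.5 to 48.5 FPKM. In the microglial list 2 of 6 passed in WSB against B6 (C1qb and Csf1r), 1 in WSB against C3H (C1qa) and 1 in C3H against B6 (C1qb), all of them lower in the strain named first. With an unadjusted p under 0.05 these were 4, 4 and 3 microglial genes, and with voom weights 2, 2 and 1. In the endothelial list 2 of 6 passed against each of B6 and C3H, Ly6c1 and Slco1a4, and Ly6c1 was listed at 0 in all 3 WSB mice. Without Ly6c1 the endothelial sums overlapped, at 27.5 to 30.9 FPKM (B6), 22.5 to 30.3 FPKM (C3H) and 23.3 to 30.0 FPKM (WSB). None of the oligodendrocyte or microglial genes was at 0 throughout. The 2 calls of Ly6c1 and that of C1qb in C3H against B6 held without any single mouse. Mobp held only without WSB replicate 1, C1qb in WSB against B6 only without WSB replicate 2, Mog only without C3H replicate 2, and Slco1a4 in no fit that left out a mouse. Csf1r was lost without B6 replicate 2 or WSB replicate 1 or 3, and C1qa without C3H replicate 1 or 3 or WSB replicate 1 or 3. The part of these shifts in the Wfs1 difference was not tested.

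Markers of 2 other cell types that bear Prox1 were set beside it, and which cells its reads came from was not tested. Cortical interneurons from the caudal ganglionic eminence were represented by 8 genes with summed levels of 62.9 to 67.9 FPKM (B6), 71.4 to 85.7 FPKM (C3H) and 74.3 to 105 FPKM (WSB). Of single genes, 26.0% (WSB) and 28.9% (C3H) did not overlap with B6 either. The mean of Prox1 was highest in B6, with differences of -0.26 (SE 0.23) in WSB and -0.14 (SE 0.27) in C3H against B6. None of the 8 was at 0. In WSB against B6 0 of 8 passed by limma (4 at an unadjusted p under 0.05, and Vip with voom weights). In C3H against B6 1 of 8 passed, Sncg, a synuclein (0.90, limma, Benjamini-Hochberg adjusted p = 0.0171), and in WSB against C3H 1 of 8, Cnr1, the cannabinoid receptor (0.63, limma, adjusted p = 0.0460). Sncg was not called without B6 replicate 1 or 3 or C3H replicate 1, nor Cnr1 without C3H replicate 1 or 3 or WSB replicate 1 or 3. Of 4 lymphatic endothelial genes, 3 were tested and 0 passed by limma (0, 1 and 1 at an unadjusted p under 0.05, 0 with voom weights), and Ccl21a was listed at 0 in all mice.

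The families of Dsp and C1ql2 were examined next. Of 11 further desmosome genes, between 5 and 7 were tested and 0 passed by limma in any comparison, at an unadjusted p under 0.05 or with voom weights. Pkp4, a plakophilin, was the highest of them with a mean of 37.7 FPKM over the 9 mice, and the summed level of the 11 was 44.7 to 51.2 FPKM with no separation of strains. Of 10 genes of C1q-like proteins, cerebellins and their receptors, 8 or 9 were tested, 0 passed by limma in the comparisons with B6 (0 and 2 at an unadjusted p under 0.05, 0 with voom weights), and C1ql1 passed in WSB against C3H, where it was lower by -0.65 (limma, Benjamini-Hochberg adjusted p = 0.0245). C1ql3, the relative of C1ql2 at mossy fibre synapses, had 14.4 ± 1.10 FPKM in B6, 12.4 ± 1.48 in C3H and 14.5 ± 3.89 in WSB (SD, n = 3) and did not pass. C1ql1 was not called without C3H replicate 1 or 3 or WSB replicate 1 or 2 (adjusted p 0.0259 to 0.0894).

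Wolframin acts in the endoplasmic reticulum, and 31 genes of the unfolded protein response were measured, all of them tested. In WSB against B6, the comparison with the largest Wfs1 difference, 1 of 31 passed, or 3.23% beside 5.90% of all genes, and the median was -0.05. Edem1, which directs misfolded proteins to degradation, was lower by -0.59 (limma, Benjamini-Hochberg adjusted p = 0.0166), at 2.25 ± 0.0579 FPKM in WSB and 3.44 ± 0.146 FPKM in B6 (SD, n = 3). Hspa5, the chaperone BiP, had 64.5 ± 3.30 FPKM in B6, 79.8 ± 3.93 in C3H and 62.1 ± 8.54 in WSB (SD, n = 3) and did not pass in any comparison. Cisd2, the gene of the second form of Wolfram syndrome, did not pass either, at 7.05 ± 0.736, 6.35 ± 0.947 and 5.99 ± 0.481 FPKM.

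In the comparisons with C3H more of these genes passed, and in 1 direction each. In C3H against B6 3 of 31 were higher, or 9.68% beside 4.64% of all genes: Ddit3, the stress transcription factor CHOP, by 0.50, Manf, a secreted factor of stressed cells, by 0.50, and Sdf2l1, a chaperone partner, by 0.57 (limma, Benjamini-Hochberg adjusted p = 0.0244, 0.0252 and 0.0415). In WSB against C3H 6 of 31 were lower, or 19.4% beside 5.74%: Sdf2l1 by -0.92, Ddit3 by -0.61, Manf by -0.56, Creld2 by -0.47, the transcription factor Xbp1 by -0.41 and the co-chaperone Dnajb11 by -0.39 (limma, adjusted p 0.0180 to 0.0380). Both comparisons share the C3H mice, so they do not count as separate evidence. Xbp1 had 34.4 ± 2.99 FPKM in B6, 44.0 ± 2.12 in C3H and 33.2 ± 1.92 in WSB (SD, n = 3), with C3H above both other strains. Wfs1 did not follow this order, since C3H lay between B6 and WSB.

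Most of these calls were lost in fits with 1 mouse fewer, which leave 2 mice in a strain and in which fewer genes passed overall except without C3H replicate 2. The log2 differences kept their direction and stayed near their size, with -0.45 to -0.36 for Xbp1 and -0.69 to -0.54 for Ddit3 in WSB against C3H. In that comparison all 6 calls were lost without C3H replicate 1 or 3 and without WSB replicate 1 or 3 (adjusted p 0.00782 to 0.140 over the fits that left out a mouse). Of the calls in C3H against B6, those of Ddit3 and Manf held only without C3H replicate 2, and that of Sdf2l1 was lost without B6 replicate 1 or 2 or C3H replicate 1 or 3 (adjusted p 0.00995 to 0.149). Edem1 passed only without WSB replicate 2 (adjusted p 0.0483 to 0.0731). With eBayes without a trend, 0 of the 31 passed in C3H against B6 and 0 in WSB against C3H.

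**Figure D4:**
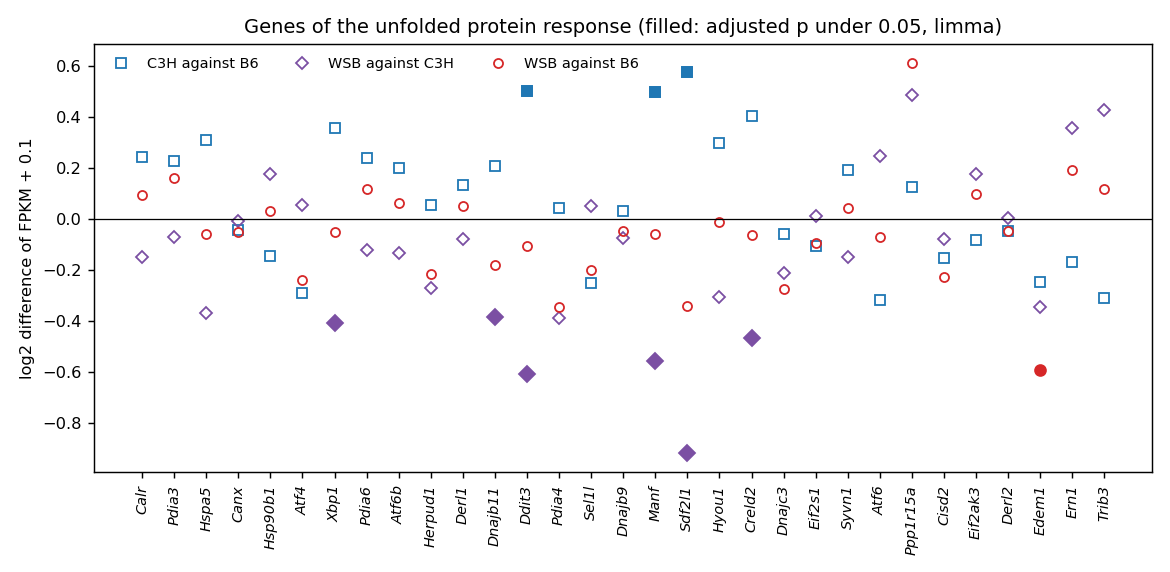
Log2 difference of FPKM + 0.1 (vertical axis) for 31 genes of the unfolded protein response (horizontal axis, highest mean level at the left) in 3 comparisons, with filled symbols for genes that passed (limma, Benjamini-Hochberg adjusted p under 0.05). Filled symbols number 1 in WSB against B6, 3 in C3H against B6 and 6 in WSB against C3H, the last all below 0.

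The neighbourhood of Wfs1 on chromosome 5 was examined for differences shared with it. Within 500 kb of its ends, 28 other genes were annotated, of which 17, 20 and 20 were tested in WSB against B6, C3H against B6 and WSB against C3H. The median log2 difference of these neighbours was -0.04, 0.08 and -0.05. No neighbour passed in the direction of Wfs1 by the limma fit, and with voom weights Gm1043, a protein-coding gene model, was higher in WSB than in C3H (0.64, adjusted p = 0.0345). The nearest neighbour before it, Ppp2r2c, a regulatory subunit of a protein phosphatase, had 171 ± 9.08 FPKM in B6, 165 ± 11.7 in C3H and 161 ± 11.5 in WSB (SD, n = 3), a log2 difference of -0.08 (SE 0.08) in WSB against B6. The nearest after it, Jakmip1, which encodes a microtubule-associated protein, had 2.38 ± 0.160, 2.52 ± 0.162 and 2.21 ± 0.236 FPKM, a log2 difference of -0.10 (SE 0.13).

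One neighbour passed, in the opposite direction to Wfs1 and in another pattern over strains. Evc2 (chr5:37338499-37425055, plus strand), a ciliary gene of Ellis-van Creveld syndrome, had 4.12 ± 0.457 FPKM in B6, 1.95 ± 0.140 in C3H and 1.97 ± 0.224 in WSB (SD, n = 3). It was lower than in B6 by -1.03 in WSB (limma, Benjamini-Hochberg adjusted p = 0.00554) and by -1.04 in C3H (limma, adjusted p = 0.00403), and both calls held without any single mouse. In WSB against C3H 0 neighbours passed by limma, 3 had an unadjusted p under 0.05, and Gm1043 was the 1 that passed with voom weights.

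**Figure D5:**
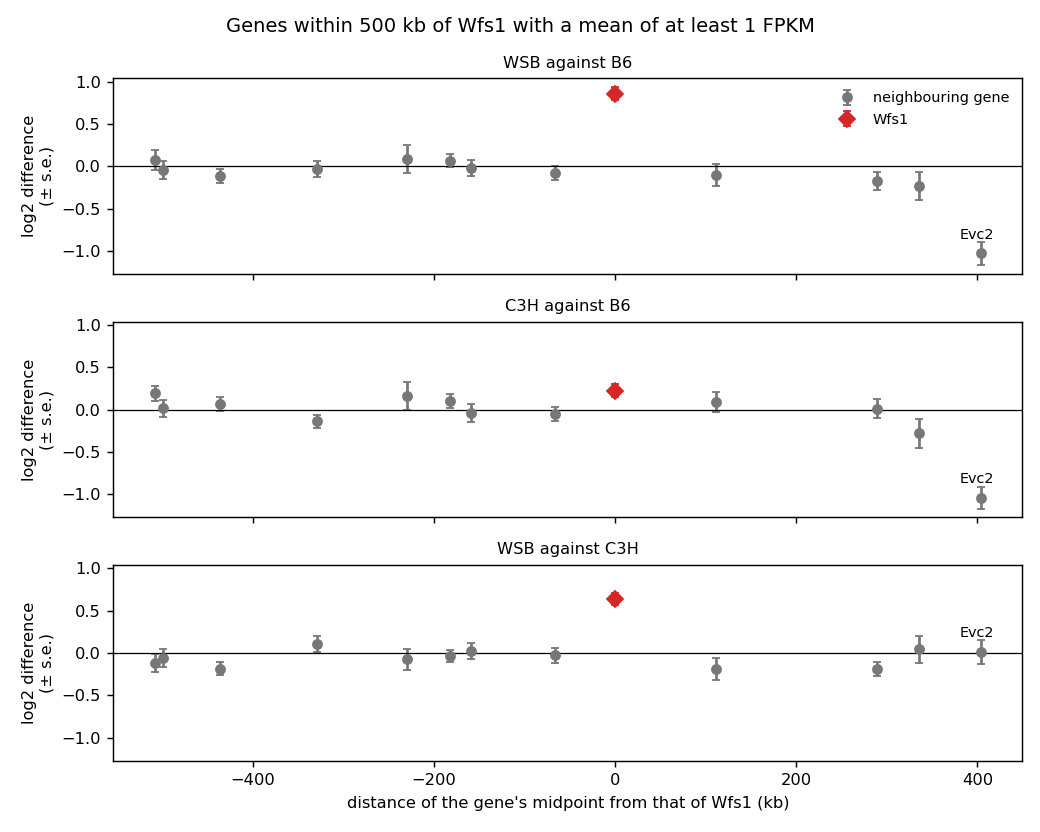
Log2 difference of FPKM + 0.1 with its standard error (vertical axes) against the distance in kilobases of each gene's midpoint from that of Wfs1 (horizontal axis), for Wfs1 (diamond) and neighbours whose mean reached 1 FPKM (circles), 1 panel a comparison. Wfs1 is at 0.86, 0.23 and 0.63, and Evc2 at -1.03 and -1.04 in the comparisons with B6 stands apart from the other neighbours.

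The genes whose profile over the 9 mice was most like that of Wfs1 were found by the root mean square difference of log2 levels, each centred on its own mean, among the 13009 genes whose mean reached 1 FPKM. They were Psmf1 (0.06), Zfp692 (0.09), Nudt16 (0.09), B9d1 (0.10) and Trabd2b (0.10), where a gene without any variation would score 0.37. Psmf1, a proteasome inhibitor subunit, had 5.82, 6.04 and 6.12 FPKM in B6, 7.34, 6.90 and 6.54 in C3H and 11.5, 11.2 and 10.1 in WSB. The order of strains was that of Wfs1, without overlap, which a choice by likeness selects for. Prox1 ranked at 11021 (0.55), Fibcd1 at 11556 (0.61), Spink8 at 12065 (0.70) and C1ql2 at 12614 (1.14), and Dsp fell below the level required. Each of these scored above a gene without variation. A wide spread between mice raises this score whatever the pattern over strains. The ranks thus give no separate evidence on whether these genes follow Wfs1.

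The mean profile of the other 5 genes had its own nearest genes among 13006: Shisa6 (0.26), Cabp7 (0.31), Lefty1 (0.33), Gm2115 (0.33) and Grp (0.35), with 0.64 for a gene without variation. Cabp7, a calcium-binding protein, had 6.35, 19.5 and 28.7 FPKM in B6, 24.3, 28.9 and 29.4 in C3H and 21.1, 17.3 and 16.4 in WSB. Lefty1, a secreted inhibitor of nodal signalling, had 0.445, 0.986 and 1.74 FPKM in B6 and 1.34 to 2.29 FPKM in the other strains. Each of these 5 genes had its lowest value in B6 replicate 1, the mouse in which all 5 markers were lowest. The choice by likeness selects for this, since the mean profile stood at -1.69 in that mouse, its lowest value. It is no further finding about the mouse. Wfs1 ranked 7728 among the 13006 genes.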

How the data were processed

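Cortex RNA from 9 mice was sequenced as paired reads of 150 bp. The authors trimmed reads with Cutadapt and counted them on genes with HTSeq, and the submitters' processing notes also name STAR and DESeq2, without versions. The strand setting of the counting is not given in the sources used here. The deposited values are FPKM per gene and mouse, with gene coordinates of GRCm38. FPKM times gene length gave whole reads for 100.0% of values (tolerance 0.01), and these reads gave the depth of 16317439 to 21562429 per library. How sequence differences of C3H and WSB from the B6 reference affect their read counts was not tested.

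Strains were compared 2 at a time with limma 3.58.1 (R 4.3.3) on log2(FPKM + 0.1), where a gene's mean reached 0.1 FPKM, with a trend in eBayes, two-sided, and Benjamini-Hochberg adjustment over all genes tested at 0.05. This test was used in place of the study's count model because the deposited unit is FPKM, and voom on the recovered reads was run as an alternative. A fold on this scale understates changes of low genes. On simulated counts of WSB against B6 the fits recovered the size of changes for genes above 1 FPKM. However, 10.8% to 22.1% of their calls were false over 5 simulated sets, where the threshold allows 5%. Of 103 false calls, 90 were genes under 1 FPKM, so calls of such low genes are the least certain. The simulation gave all genes the same spread beyond counting error, so the share of false calls in the real data was not measured. Mice with the same replicate number did not deviate together (correlations of deviations -0.157 to 0.037), so no block was used in the comparisons reported. Alternatives were other pseudocounts and filters, rescaling, all strains in 1 fit, eBayes without a trend, voom weights on the recovered reads, the block, leaving out each mouse and, added after seeing the data, removal of GC trends.

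The 6 genes, the marker lists and the alternatives were chosen with earlier results of these data known. Named genes were the 6, every listed gene that passed, up to 4 further genes of the highest mean level in each list, the 5 nearest in profile to Wfs1 and to the mean of the other 5, and neighbours within 500 kb that passed. Ppp2r2c and Jakmip1 were named as the nearest expressed neighbours, and Lct, Gpr161, Hspa5, Cisd2 and C1ql3 were named for their background after values were seen. Symbols were matched to the table, where Ccn3 and Ccn2 are held as Nov and Ctgf. Promoters are from RefSeq (GRCm38.p6) and were found for 5 of the 6 genes. Protein sequences were not analysed here.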

Additional observations from a re-analysis of the deposited data

How the results depend on the processing

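Over 16 alternatives per comparison, Wfs1 kept its sign in all 3 comparisons. Its log2 difference ran from 0.79 to 0.91 in WSB against B6, from 0.61 to 0.73 in WSB against C3H and from 0.051 to 0.27 in C3H against B6; the values 0.051 and 0.73 came from removing each library's GC trend, an alternative added after seeing the data. With the replicate block, the genes called numbered 754 in WSB against B6, 480 in C3H against B6 and 531 in WSB against C3H; unfolded protein response genes called were 1 in C3H against B6 and 0 in WSB against C3H, and hippocampal markers 0 in WSB against C3H. The numbers do not pair the mice. Voom weights on recovered reads called 1796 genes in WSB against C3H, 2 and 5 unfolded protein response genes in WSB and in C3H against B6, and 1 hippocampal marker in C3H against B6. With all 3 strains in 1 fit, 3 unfolded protein response genes were called in WSB against B6 and 1 hippocampal marker in each comparison with B6. The GC step called 2 and 6 unfolded protein response genes in WSB and in C3H against B6, and 9 in WSB against C3H. All 3 strains in 1 fit called 8 of them in WSB against C3H, where the main fit called 6. Pseudocounts of 1 and 0.01, no filter on low values and rescaling to total reads each left 1 hippocampal marker in WSB against B6, and no filter or a minimum mean of 1 FPKM left 1 in WSB against C3H. With eBayes without a trend, unfolded protein response genes called were 0 in C3H against B6 and 0 in WSB against C3H, and hippocampal markers 1 in WSB against B6 and 1 in WSB against C3H. The cause was not tested. A minimum of 1 FPKM removed Dsp, so the level of Wfs1 beside the other 5 has no value there.

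Leaving out each mouse gave 651 to 825 genes called in WSB against B6, 498 to 2301 in C3H against B6 and 475 to 2002 in WSB against C3H, against 1224, 956 and 1182 with all mice; 2301 and 2002 came without C3H replicate 2. Hippocampal markers called ranged over 1 to 3, 0 to 1 and 0 to 3, and unfolded protein response genes over 0 to 1, 0 to 5 and 0 to 6. Wfs1 differences ranged over 0.81 to 0.91, 0.18 to 0.27 and 0.61 to 0.67. Wfs1 beside the other 5 genes ranged over -0.02 to 1.25, -0.65 to 0.62 and 0.51 to 0.77. With all mice included, the ranges of the 5 markers overlapped between strains, and without B6 replicate 1 those of Prox1 and C1ql2 (against WSB) and of Prox1, Fibcd1 and C1ql2 (against C3H) did not. Dsp rested on as few as 3 reads.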

Other observations

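Lists that stood in no comparison above gave these values. The 7 thalamic relay neuron markers had summed levels of 10.8 to 14.4 FPKM (B6), 12.0 to 44.9 FPKM (C3H) and 14.0 to 33.2 FPKM (WSB), and the 9 meningeal markers 22.4 to 29.8, 23.8 to 33.1 and 17.7 to 33.3 FPKM. By limma 0 genes of either list passed, with 2, 3 and 0 thalamic and 0, 1 and 3 meningeal genes at an unadjusted p under 0.05 and 0 with voom weights. Choroid plexus markers ran from 64.7 to 764 FPKM within B6 alone, from 92.4 to 657 in C3H and from 468 to 604 in WSB, with 0 of 6 passing by limma, at an unadjusted p under 0.05 or with voom weights. The 6 astrocyte genes summed to 360 to 394, 332 to 380 and 306 to 354 FPKM, and 1 passed, Gfap, the intermediate filament gene of astrocytes, which was lower in WSB than in C3H by -0.70 (limma, Benjamini-Hochberg adjusted p = 0.0141) and not called without WSB replicate 1 or 3.

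Genes of red blood cells separated C3H from both other strains, with summed levels of 632 to 1010 FPKM in C3H, 217 to 254 in B6 and 249 to 329 in WSB. In C3H against B6 3 of 5 passed and were higher, Hba-a1 by 2.28, Hbb-bs by 1.49 and Alas2, the heme synthesis enzyme of red blood cell precursors, by 1.06 (limma, Benjamini-Hochberg adjusted p = 0.000101, 0.00548 and 0.00488). In WSB against C3H the same 3 passed and were lower, and in WSB against B6 Hba-a1 was higher and Hbb-bt lower. Hba-a1 and the Hbb genes have near-identical copies between which reads can be split, so their values are uncertain.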
